A study of Rattus norvegicus with 12 samples.

Results

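The homeostatic astrocyte transport and channel genes described here are 7 rows of the count table, taken by Ensembl identifier: Aqp4 (ENSRNOG00000016043), Slc1a2 (ENSRNOG00000005479), Slc1a3 (ENSRNOG00000016163), Gja1 (ENSRNOG00000000805), Glul (ENSRNOG00000049560), Kcnj10 (ENSRNOG00000007705) and S100b (ENSRNOG00000001295). They were chosen with earlier results of these data known. All 7 were among the 32883 rows of the table. Of these, 5 passed the filter on low counts and were tested among 5285 genes, and 2, Slc1a2 and Kcnj10, were too sparse to test. The symbols came with the identifiers. The RefSeq table used here lists all 7 symbols but pairs none of the identifiers with a symbol, so the pairing was not checked independently.

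Bulk RNA of the T9 (ninth thoracic) segment of Sprague Dawley rat spinal cord was counted as 3' tags with CEL-Seq2, a method that reads each transcript near its poly(A) tail. The 3 groups of 4 libraries were uninjured cord, cord 5 days after a T9 hemisection (a cut through one side of the cord), called injured, and cord 5 days after the same injury from rats that also had epidural electrical stimulation over segments L2 to S1, called stimulated. The sampled segment was thus the injury site and not the stimulated segments. Age, sex and the schedule of stimulation are not in the labels, nor is it stated whether each library came from its own rat. The p-values therefore rest on library-to-library spread, some of which may be technical.

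Astrocytes keep the fluid around neurons stable. Their membranes carry water channels (aquaporin-4, from Aqp4) and inwardly rectifying potassium channels (Kir4.1, from Kcnj10), which are concentrated on the endfeet that wrap blood vessels, and connexin 43 (Gja1) couples neighbouring astrocytes through gap junctions. The transporters GLT-1 (Slc1a2) and GLAST (Slc1a3) clear glutamate from synapses, glutamine synthetase (Glul) converts it to glutamine, and S100b encodes a calcium-binding protein long used as a glial marker. Glul and S100b are also made by cells of the oligodendrocyte lineage. Bulk cord does not separate cell types, so the level of any member need not be that of astrocytes alone.

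The 5 tested members did not move as one group. Between injured and uninjured cord S100b fell 2.15-fold and Slc1a3 rose 1.84-fold, where 15.2% of all tested genes were called lower and 16.8% higher. Between stimulated and uninjured cord Aqp4 fell 3.33-fold and Glul rose 1.77-fold, where 16.2% were called lower and 18.3% higher. Each of these genes had the same sign in both comparisons. The changes that did not pass had edgeR adjusted p of 0.0534 (Glul) and 0.0823 (Aqp4) in injured cord. In stimulated cord the values were 0.0546 (Slc1a3) and 0.0608 (S100b). Gja1 passed no test in any comparison, and no member passed between stimulated and injured cord. In bulk tissue, fewer cells of a type and less RNA per cell cannot be told apart.

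The upstream sequences of the 4 members that passed a test in some comparison are shown because these members moved in opposite directions. Each is the RefSeq window on build GRCr8 from 250 bases before to 50 bases after an annotated start, printed 5′ to 3′ on the gene's strand. Where RefSeq lists several starts the most upstream is given, and for Glul, whose starts lie far apart, both are given. Capitals mark the CCAAT box or its reverse complement, ATTGG.
S100b, chr20:12381032-12381331, minus strand: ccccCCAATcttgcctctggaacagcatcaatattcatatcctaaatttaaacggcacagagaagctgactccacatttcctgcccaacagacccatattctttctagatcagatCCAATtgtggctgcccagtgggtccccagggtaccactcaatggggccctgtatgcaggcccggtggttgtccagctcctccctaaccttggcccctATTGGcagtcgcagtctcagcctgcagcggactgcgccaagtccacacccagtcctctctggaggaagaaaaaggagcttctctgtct
Aqp4, chr18:6798793-6799092, minus strand: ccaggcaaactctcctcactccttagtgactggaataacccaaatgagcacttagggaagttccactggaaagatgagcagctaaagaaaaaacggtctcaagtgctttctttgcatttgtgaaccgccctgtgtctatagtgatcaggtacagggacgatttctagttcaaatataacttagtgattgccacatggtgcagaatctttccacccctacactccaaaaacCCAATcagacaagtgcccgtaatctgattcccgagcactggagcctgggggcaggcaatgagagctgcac
Slc1a3, chr2:59557759-59558058, minus strand: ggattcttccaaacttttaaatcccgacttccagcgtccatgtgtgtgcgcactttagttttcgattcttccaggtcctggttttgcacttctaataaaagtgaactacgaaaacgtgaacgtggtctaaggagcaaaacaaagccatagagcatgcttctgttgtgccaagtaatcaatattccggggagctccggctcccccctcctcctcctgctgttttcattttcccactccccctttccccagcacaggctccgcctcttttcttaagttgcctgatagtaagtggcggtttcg
Glul upstream start, chr13:68519250-68519549, plus strand: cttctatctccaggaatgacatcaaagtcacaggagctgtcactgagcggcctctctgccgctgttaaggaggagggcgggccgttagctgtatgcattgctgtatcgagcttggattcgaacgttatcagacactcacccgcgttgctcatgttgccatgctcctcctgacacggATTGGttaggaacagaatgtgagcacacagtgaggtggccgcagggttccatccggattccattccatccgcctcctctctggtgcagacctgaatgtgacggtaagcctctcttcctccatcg
Glul downstream start, chr13:68575816-68576115, plus strand: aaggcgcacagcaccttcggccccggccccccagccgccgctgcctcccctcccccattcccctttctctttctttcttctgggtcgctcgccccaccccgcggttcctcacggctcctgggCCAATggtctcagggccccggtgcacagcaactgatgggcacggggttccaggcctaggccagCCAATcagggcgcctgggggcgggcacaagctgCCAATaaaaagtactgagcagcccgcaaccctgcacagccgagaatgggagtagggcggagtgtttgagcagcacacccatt

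The windows of S100b and of the downstream Glul start hold 3 CCAAT boxes each. The fitted changes of these genes had opposite signs, and any link of the box to them was not tested. The Aqp4 window shown and the upstream Glul window hold 1 each, and the Slc1a3 window holds none. The window of the other Aqp4 start holds 0. The box occurs in 6 of the 12 windows listed for the 7 genes. Of 33469 RefSeq windows of this length, 37.5% hold it on either strand. The letters TTCNNNGAA, the core recognised by STAT factors, occur in none of the 12 windows listed for the 7 genes and in 8.87% of all windows. TGANTCA, the core bound by AP-1, occurs in 1 of the 12, at Gja1, and in 7.33% of all windows. Each motif was searched on both strands, and a match describes the letters and is not a binding site.

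Library totals ran from 204836 to 553986 counts, and every stimulated library was shallower than every injured one. Injured replicate 1 stood nearest to the uninjured mean over all tested genes, at a root mean square log2 distance of 0.90, against 1.12 to 1.33 in the other injured and stimulated libraries. Depth was not evened out in this distance. Injured replicate 1 held 510260 counts, and the farthest library, stimulated replicate 1, held 204836. The deepest, injured replicate 4 with 553986, stood at 1.12. The 7 members together held 0.711% to 0.931% of all counts in the uninjured libraries. They held 0.575% to 0.636% in the injured and 0.522% to 0.652% in the stimulated ones, and S100b alone gave 14417 of their counts. The highest count of any gene was between 4059 and 4094 in every library, just under the number of different identifiers that 6 bases can form, so the counts of abundant genes may be compressed. Among the members this bears most on S100b, whose highest count was 53.6% of that number, against 21.9% for Glul and 17.5% for Aqp4. Levels are given in CPM, counts per 1000000 counts of tested genes after TMM scaling, which evens out differences in library composition.

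**Figure D1:**
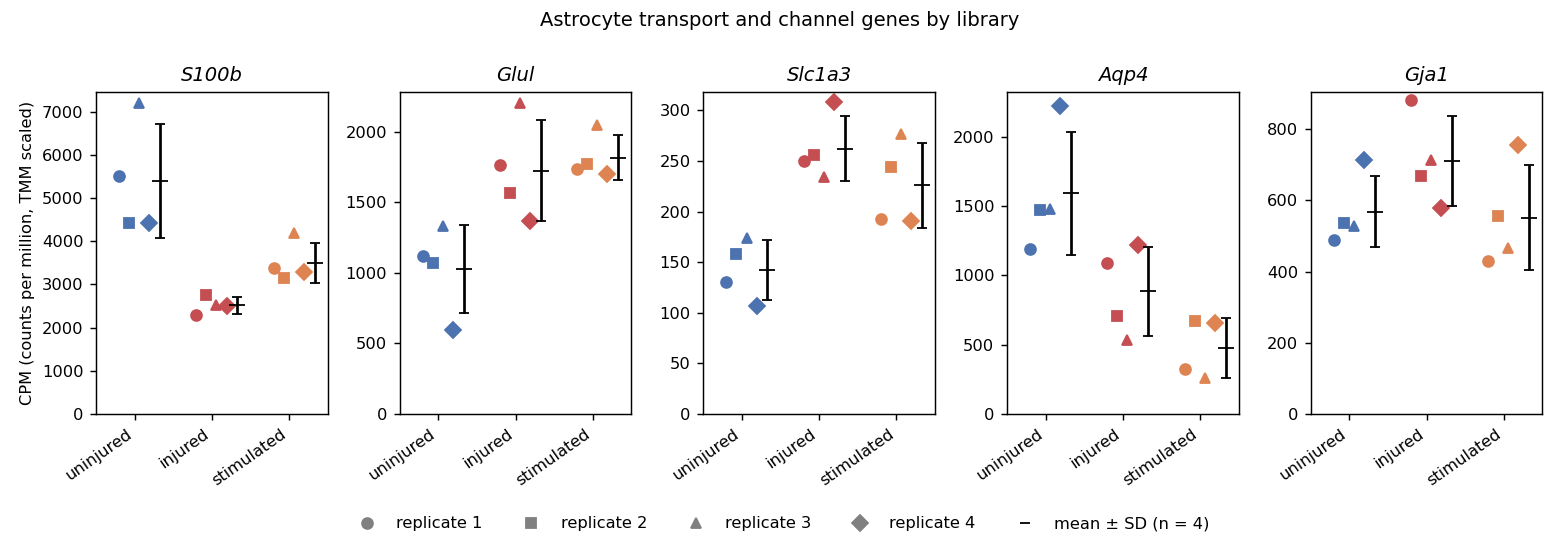
CPM of the 5 tested members in each library (points, shape by replicate number). Bars give the mean and SD of each group (n = 4), on linear axes that start at 0. S100b is lowest in injured cord at 2287 to 2750 CPM, Glul and Slc1a3 are higher in every injured and stimulated library than in any uninjured one, the Aqp4 means are 1591, 886 and 477 CPM, and the Gja1 groups overlap.

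S100b, the calcium-binding glial marker, had the lowest adjusted p of the members after injury. Its CPM in uninjured replicates 1 to 4 was 5516, 4429, 7206 and 4426. In injured cord it was 2287, 2750, 2526 and 2495, and in stimulated cord 3377, 3138, 4177 and 3295. Every injured library lay below every stimulated one, and every stimulated one below every uninjured one. Against uninjured cord, groups did not overlap for 30.0% of all tested genes in injured cord and for 31.1% in stimulated cord. The means were 5394 ± 1312, 2514 ± 190 and 3497 ± 464 CPM (SD, n = 4 each). The fall from uninjured to injured cord was -1.10 on the log2 scale (SE 0.25, edgeR quasi-likelihood adjusted p = 0.00295), and all 22 alternative analyses kept the call. Stimulated against uninjured cord gave -0.63 (SE 0.25, edgeR adjusted p = 0.0608), which just missed the threshold of 0.05.

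S100b was also computed on the assumption that counts are compressed by identifier collisions. Undoing such collisions added 14.0% to 23.9% to the injured S100b counts, 17.7% to 43.2% to the uninjured and 8.05% to 16.2% to the stimulated ones. The log2 fold change became -1.26 in injured (edgeR adjusted p = 0.00384) and -0.86 in stimulated against uninjured cord (edgeR adjusted p = 0.0315), so the second difference passed after the correction. It also passed in 6 further alternatives, among them that without uninjured replicate 4 (edgeR adjusted p = 0.0414). Between stimulated and injured cord, S100b was 1.39-fold higher in stimulated cord (log2 0.48, SE 0.25, 95% interval -0.05 to 1.00, edgeR adjusted p = 0.564), and the correction lowered this to 0.40. The 2 groups did not overlap, which held for 4.82% of all genes tested in this comparison.

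Slc1a3, which encodes the glutamate transporter GLAST, showed the opposite direction. Its CPM in uninjured replicates 1 to 4 was 130, 158, 174 and 106. In injured cord it was 249.7, 256, 234 and 308, and in stimulated cord 193, 244, 277 and 190.3. All injured and all stimulated libraries lay above the uninjured range. Groups did not overlap, in either direction, for 30.0% and 31.1% of all tested genes in these comparisons, in that order. The rise in injured cord was 0.88 on the log2 scale (SE 0.25, edgeR adjusted p = 0.0136, means 142 ± 30.1 and 262 ± 32.0 CPM, SD, n = 4 each), and it passed in all 22 alternatives, with adjusted p from 0.00319 to 0.0487. In stimulated cord the mean was 226 ± 42.0 CPM, a difference of 0.67 from uninjured cord (SE 0.26, edgeR adjusted p = 0.0546) that did not pass. The stimulated and injured libraries overlapped, and their difference of -0.21 had a 95% interval of -0.74 to 0.32 (edgeR adjusted p = 0.796).

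Glul, the glutamine synthetase gene that acts on the glutamate taken up by these transporters, had a profile like that of Slc1a3. Its CPM in uninjured replicates 1 to 4 was 1119, 1070, 1334 and 592. In injured cord it was 1766, 1565, 2202 and 1368, and in stimulated cord 1739, 1772, 2052 and 1703. The uninjured libraries lay below all others, with replicate 4 far below the rest of its group. Of all tested genes, 30.0% were separated from uninjured cord, in either direction, in injured cord and 31.1% in stimulated cord. The difference between injured and uninjured cord was 0.75 on the log2 scale (SE 0.28, edgeR adjusted p = 0.0534) and did not pass. That between stimulated and uninjured cord was 0.82 (SE 0.29, edgeR adjusted p = 0.0328) and did pass, with means of 1029 ± 313 and 1817 ± 159 CPM (SD, n = 4 each). Both calls lie close to the threshold: the first passed in 7 of 22 alternatives, among them that without uninjured replicate 3 (edgeR adjusted p = 0.0446), and the second was lost in 7 of 22, among them those without uninjured replicate 1, 2 or 4 and without stimulated replicate 1, 2 or 3 (edgeR adjusted p 0.0503 to 0.0982). That one of these differences passed and the other did not is no evidence of a difference between injured and stimulated cord. Glul differed there by 0.08 (95% interval -0.52 to 0.67, edgeR adjusted p = 0.949), which shows neither a difference nor its absence.

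**Figure D2:**
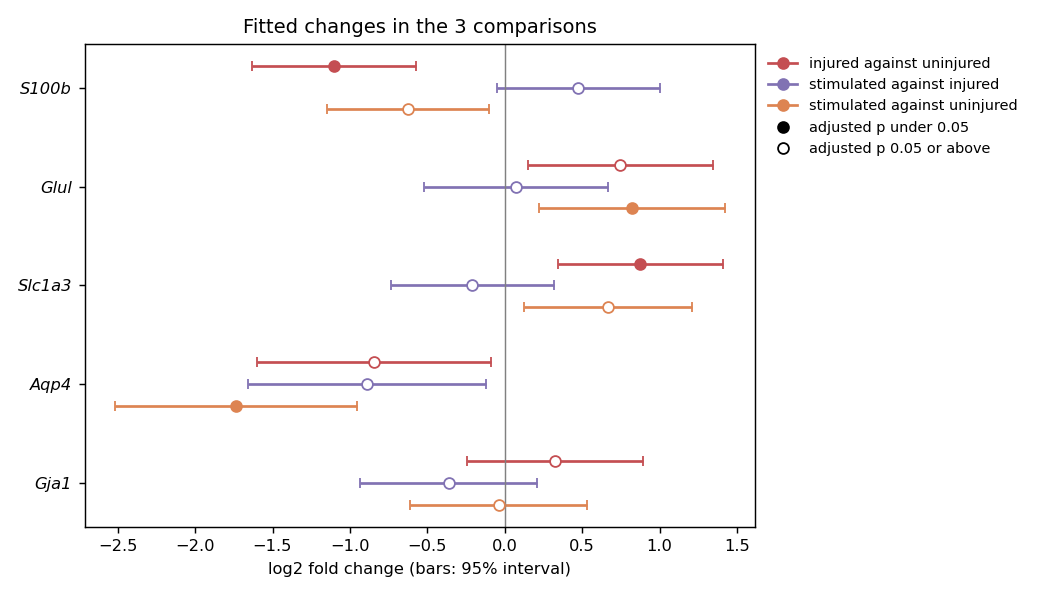
Log2 fold change of each tested member (points) with its 95% interval (bars) in the 3 comparisons, filled where the adjusted p was under 0.05. S100b and Aqp4 lie left of 0 and Glul and Slc1a3 right of 0 against uninjured cord, and no point is filled for stimulated against injured cord.

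Slc1a2, the gene of the other glutamate transporter, GLT-1, is known as a strongly expressed astrocyte gene, but its row held 20 counts in all 12 libraries together. Whether the annotation used for counting reaches the 3' ends that CEL-Seq2 reads in Slc1a2 and Kcnj10 was not tested, so their few counts need not follow their RNA levels. The uninjured replicates had 3, 3, 3 and 1 counts, the injured ones 7, 1, 0 and 0, and the stimulated ones 0, 1, 1 and 0. Pooled over a group and divided by all its counts, with no TMM scaling, uninjured cord stood at 7.52 CPM (95% exact Poisson interval 3.61 to 13.8). The same value was 4.29 CPM after injury (1.85 to 8.46) and 1.92 CPM with stimulation (0.233 to 6.94), and these intervals overlap. The ratio of stimulated to uninjured cord was 0.255 with an exact counting interval of 0.0272 to 1.20. These intervals cover counting error only, and no difference in Slc1a2 was detectable with so few counts.

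Aqp4, the water channel of the endfeet, had the largest fitted change of the 5 tested members, in stimulated against uninjured cord. Its CPM in uninjured replicates 1 to 4 was 1188, 1471, 1481 and 2225. In injured cord it was 1091, 704, 532 and 1215, and in stimulated cord 323, 669, 257 and 659. Every stimulated library lay below every uninjured one, and 31.1% of all tested genes were separated there in either direction. Injured replicate 4 reached into the uninjured range and stimulated replicates 2 and 4 into the injured range. Stimulated against uninjured cord gave -1.74 on the log2 scale (SE 0.37, edgeR adjusted p = 0.00153, means 1591 ± 444 and 477 ± 217 CPM, SD, n = 4 each). The call held in all 22 alternatives, at -1.94 to -1.55. Injured cord had a mean of 886 ± 321 CPM and differed from uninjured cord by -0.84 (SE 0.36, edgeR adjusted p = 0.0823), which did not pass.

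The Aqp4 difference between stimulated and injured cord was -0.89 (SE 0.36, 95% interval -1.66 to -0.12), with an unadjusted edgeR p of 0.0253 and an adjusted p of 0.509. In this comparison 3.73% of the 5285 genes had a log2 fold change as low or lower. Leaving out each library gave -1.11 to -0.71, and without injured replicate 1, the library nearest to uninjured cord, it was -0.80. With all libraries thinned to equal totals it was again -0.89. The other channel gene, Kcnj10, whose product Kir4.1 clears potassium, held 12 counts in all. The uninjured replicates had 0, 2, 5 and 0 counts, the injured ones 0, 1, 0 and 0, and the stimulated ones 0, 1, 2 and 1. The injured to uninjured ratio was 0.102 with an exact counting interval of 0.00226 to 0.793, and 5 of the 7 uninjured counts came from replicate 3. A library at 0 counts allows between 5.08 and 17.0 CPM by the limit of 3 counts, so Kcnj10 at a few CPM would not be seen reliably in any of these libraries. In edgeR with no filter on low counts, neither Kcnj10 (adjusted p 0.13 to 0.883) nor Slc1a2 (adjusted p 0.343 to 0.751) passed in any comparison.

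Gja1, the connexin of astrocyte gap junctions, showed no difference that passed. Its CPM in uninjured replicates 1 to 4 was 490.0, 537, 529 and 714. In injured cord it was 881, 667, 714 and 579, and in stimulated cord 431, 555, 465 and 756. The 3 groups overlapped. The log2 differences were 0.32 for injured against uninjured (95% interval -0.25 to 0.89), -0.36 for stimulated against injured (-0.93 to 0.21) and -0.04 for stimulated against uninjured cord (-0.61 to 0.53), with edgeR adjusted p of 0.391, 0.67 and 0.926. These intervals reach from 0.523-fold to 1.86-fold, so they do not show that Gja1 was constant.

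Set beside all genes, the members were called about as often as the rest. Between injured and uninjured cord 1 member of 5 rose, where 16.8% of all tested genes rose, and 1 of 5 fell, where 15.2% did. Between stimulated and uninjured cord the figures were again 1 and 1, against 18.3% and 16.2% of all genes. Between stimulated and injured cord 0 of 5 passed, as did 0% of all genes by edgeR, where 491 genes and, among the members, Aqp4 had an unadjusted p under 0.05. DESeq2 called 2 genes there and edgeR with no filter on low counts called 14 higher and 14 lower, none of them members, and limma-voom called 0. The CPM of the groups did not overlap for 3 of 5 members between injured and uninjured cord (30.0% of all genes) and for 4 of 5 between stimulated and uninjured cord (31.1% of all genes). The members' median log2 fold change was 0.32, -0.21 and -0.04 for injured against uninjured cord, for stimulated against injured cord and for stimulated against uninjured cord, and the median of all genes was -0.0037, 0.0026 and 0.0129 in that order. Both comparisons with uninjured cord share its 4 libraries.

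Ratios of members within a library need no scaling between libraries and show the unequal changes. They are not free of count compression: undoing identifier collisions added 8.05% to 43.2% to the S100b counts and at most 2.20% to those of Slc1a3. All 10 pairs were compared in all 3 comparisons, 30 tests in all, a measure chosen after the levels had been seen. The groups did not overlap for 6 of 10 pairs between injured and uninjured cord, for 5 between stimulated and uninjured cord, and for 2 between stimulated and injured cord. Over all 4766328 pairs of the 3088 genes with a mean count of 20 or more and no count of 0, the same held for 34.0%, 36.9% and 5.33% in that order. The 10 pairs share 5 genes and are not independent, so nothing particular to the members is read from these counts. An exact two-sided permutation test of 4 against 4 libraries cannot go below p = 0.0286, and after adjustment over the 30 tests the lowest p was 0.066, so no ratio passed.

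Slc1a3 to S100b was the ratio in which all 3 groups stood apart. How many of all gene pairs do the same was not counted. In the uninjured replicates there were 0.0236, 0.0358, 0.0242 and 0.0240 Slc1a3 counts per S100b count. There were 0.109, 0.0931, 0.0928 and 0.123 in injured cord, and 0.0570, 0.0778, 0.0662 and 0.0577 in stimulated cord. The ratio was thus highest in injured cord, lowest in uninjured cord and between them in every stimulated library. It was 3.93-fold higher in injured than in uninjured cord and 1.62-fold lower in stimulated than in injured cord (exact permutation p = 0.0286 each, adjusted p = 0.066). The second log2 difference of -0.69 ranged from -0.79 to -0.59 with collision correction, with thinning and without each library in turn.

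The ratio of Aqp4 to Gja1 compared a channel of the endfeet with the gap junction gene. Aqp4 counts per Gja1 count were 2.42, 2.74, 2.80 and 3.12 in the uninjured replicates. They were 1.24, 1.05, 0.745 and 2.10 in injured cord, and 0.75, 1.20, 0.554 and 0.871 in stimulated cord. Both injured groups lay below the uninjured one, and they overlapped each other. The ratio was 2.31-fold lower in injured and 3.40-fold lower in stimulated than in uninjured cord (exact permutation p = 0.0286 each, adjusted p = 0.066), and the step of 1.47-fold between the injured groups was within the spread (exact permutation p = 0.229, adjusted p = 0.286). Against Glul, Aqp4 was 3.18-fold lower in injured and 6.51-fold lower in stimulated cord, with the same p values.

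**Figure D3:**
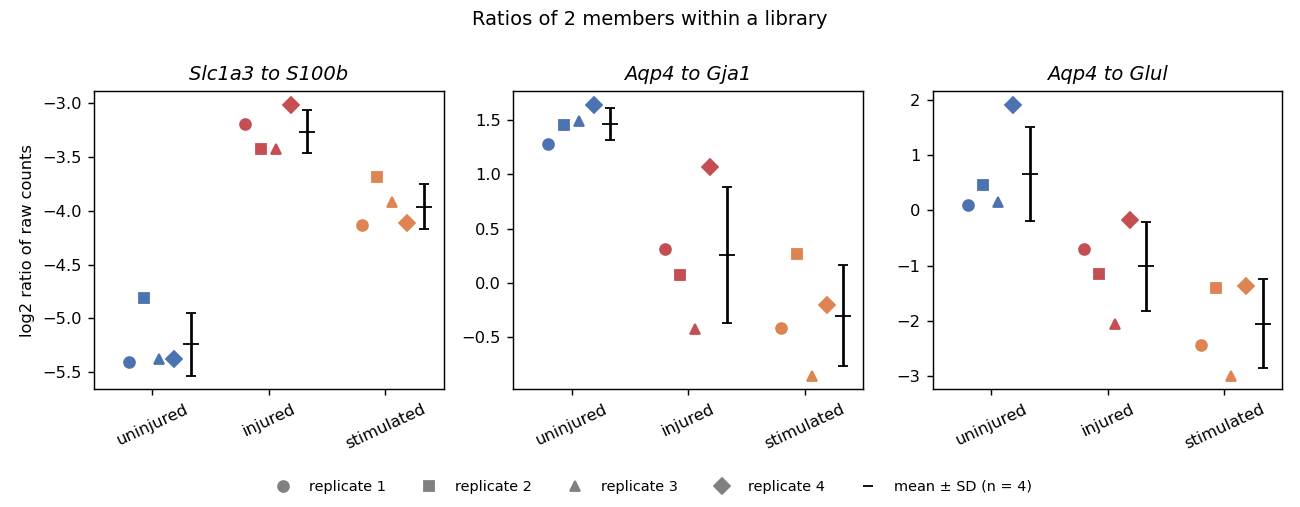
Log2 ratio of raw counts of 2 members within each library (points, shape by replicate number). Bars give the mean and SD of each group (n = 4). The axes differ between panels and do not start at 0. Slc1a3 to S100b separates all 3 groups, and both Aqp4 ratios are lower in every injured and stimulated library than in any uninjured one.

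Members also differed in how much they varied between libraries of a group. The SD of log2 CPM within groups was 0.56 for Aqp4, 0.34 for Glul, 0.29 for Gja1, 0.25 for Slc1a3 and 0.23 for S100b. Among 3113 genes with a mean count of 20 or more, 69.7% varied as little as Aqp4 or less, against 3.92% for S100b and 6.30% for Slc1a3. The mean counts were 1201 for S100b, 344 for Aqp4 and 74.2 for Slc1a3. These shares were not adjusted for mean count or for compression of the S100b counts. In stimulated cord the highest Aqp4 library was 2.60 times the lowest, and for Glul the same ratio was 1.20. In 2 of the 3 groups the library highest in Aqp4 was lowest in Glul: uninjured replicate 4 had the highest Aqp4 and Gja1 and the lowest Glul and Slc1a3 of its group, and injured replicate 4 had the highest Aqp4 and the lowest Glul. The other members did not follow this, since injured replicate 4 was the lowest of its group in Gja1 (579 CPM) and the highest in Slc1a3 (308 CPM).

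One component held 39.5% of all within-group variance of log2 CPM, and it touched the members unequally. It set 2 libraries of each group against the other 2: uninjured replicates 1 and 4, injured 2 and 4 and stimulated 2 and 4 on one side. From the lowest to the highest library on it, the fitted log2 CPM differed by 0.79 for Aqp4, 0.30 for Gja1, -0.24 for S100b, -0.33 for Slc1a3 and -0.61 for Glul. It accounted for 47.4% of the within-group variance of Glul and 30.8% of that of Aqp4. Of the 5285 genes, 24.3% had a weight on this component as low as that of Glul or lower. For Aqp4 the share was 81.6%, so neither gene lay at an extreme. Each group had libraries on both sides, and the part of this component in the comparisons was not tested.

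**Figure D4:**
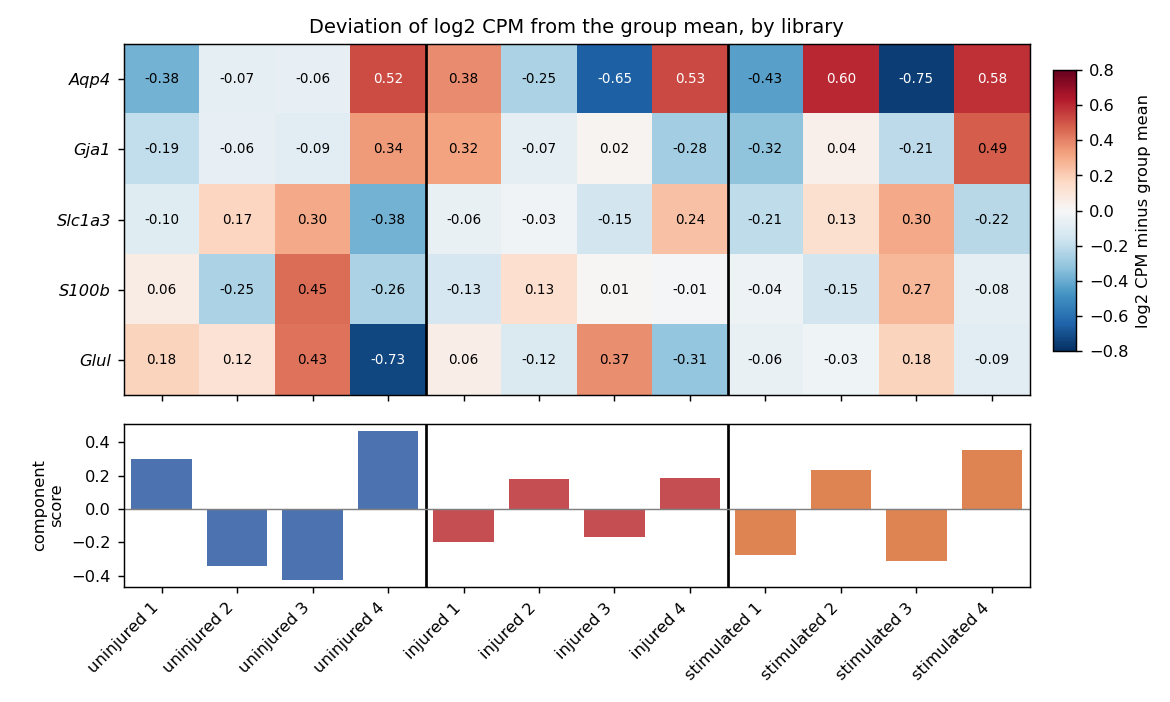
Upper panel: log2 CPM of each tested member minus its group mean, in each library (colour and printed value). Lower panel: score of the libraries on the strongest component of within-group variation, in log2 units per gene. Aqp4 has the widest deviations, from -0.75 in stimulated replicate 3 to 0.60 in stimulated replicate 2, and Glul is at -0.73 in uninjured replicate 4.

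Likeness of profiles was measured as the root mean square difference, over the 12 libraries, of log2 CPM centred on the uninjured mean. Slc1a3 and Glul were the closest pair at 0.31, and Aqp4 and Glul the farthest at 1.95. The mean profile of the 5 members was compared with that of every other gene. The 2 genes outside the members nearest to it, among 3108 with a mean count of 20 or more, were ENSRNOG00000006206 at 0.17, with 101, 105 and 85.7 CPM in uninjured, injured and stimulated cord, and ENSRNOG00000031031 at 0.17, with 81.7, 79.6 and 74.9 CPM. Gja1 was at 0.30 from that mean, and the other 4 members at 0.70 to 1.15. The median of the 3108 genes was 0.72, and 1485 of them stood nearer than S100b and 2400 nearer than Aqp4. Members that rose and members that fell offset each other in that mean, so nearness to it is not likeness to single members.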

How the data were processed

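Gene expression was measured in 12 bulk CEL-Seq2 libraries of rat T9 spinal cord, 4 per group by the labels. The values the authors deposited are raw counts, 1 row for each Ensembl gene. HISAT2 2.0.4, HTSeq 0.6.0 and Rnor_6.0 appear in the submitters' processing notes, which assign them no step. Annotation release, strandedness and any collapsing of reads by identifier were not given in the sources used here, and genes that share sequence or overlap were not separated.

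Counts were fitted in R 4.3.3 with edgeR 4.0.16 (filterByExpr, TMM factors, quasi-likelihood model with robust dispersion, all 12 libraries, group as the only term), and p-values were adjusted by Benjamini-Hochberg over 5285 genes at a threshold of 0.05. Each standard error was taken as the log2 fold change over the root of its F statistic, with 95% intervals from the t distribution of the fit. CPM are counts per 1000000 counts of tested genes, and log2 CPM used a prior count of 2. The steps were tested on simulated data. Alternatives included DESeq2 1.42.0, limma 3.58.1, undoing collisions among identifiers of 6 bases, and leaving out each library. Replicates were checked for duplicate libraries, and every pair within a group differed by more than counting noise (chi-square over its degrees of freedom, 2.95 to 10.0). The 7 members, the lists and the tests were chosen with earlier results of these data known. The genes named in the text are the 7 members and, for likeness of profile, the 2 nearest others. Lists of further genes by symbol were not used, since no table used here pairs the identifiers with symbols, and cell type markers were not analysed here for that reason. Promoter windows came from RefSeq (GRCr8). Figures were drawn with matplotlib 3.10.9.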

Additional observations from a re-analysis of the deposited data

Results flagged for a closer look

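Each group of 4 libraries was examined for a single value set apart by Dixon's ratio at its 95% critical value. Of 21 such groups 1 met it, where about 1.05 would by chance. Kcnj10 stood at 2.59 CPM in injured replicate 2 and at 0 in the other 3 injured libraries. That value is 1 count, and any group holding a single count gives this pattern.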

How the results depend on the processing

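In injured against uninjured cord 2 members were called, and 4 were with the replicate block and 4 with limma-voom with sample weights, which added Glul and Aqp4 (adjusted p 0.0361 and 0.0496 for Aqp4). Leaving out each library gave 2 to 3. Over all 5285 genes the main fit called 889 higher and 803 lower. The replicate block called 953 and 848, and limma-voom 947 and 904. In stimulated against uninjured cord 2 members were called, and 1 with no filter on low counts. There were 4 with a mean count of 20, 4 with DESeq2 and 4 with thinning to equal totals. Leaving out each library gave 1 to 2, with 1 without uninjured replicate 1 or 2 and without stimulated replicate 1, 2 or 3. Over all genes the main fit called 968 higher and 858 lower of 5285, and no filter 1151 and 1092 of 18333. A mean count of 20 called 645 and 589 of 3113, DESeq2 981 and 872 of 5285, and thinning 703 and 689 of 3856. Slc1a3 was called there in 3 of 22 alternatives and S100b in 7. Between stimulated and injured cord 0 members were called in all 22. The cause of these shifts was not tested. The labels do not say that replicate numbers pair the libraries, and the values do not settle it. Same-numbered libraries had correlations of -0.34 to 0.43 between their deviations, and 4 of 12 correlated best with their own number. Between stimulated and injured cord these correlations were 0.066, 0.12, 0.28 and 0.29, and in the other comparisons they had both signs. The block changed no other member's call.

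Estimates near 0 changed sign. For Glul in stimulated against injured cord these were -0.068 with total counts, -0.0355 with no filter and -0.0038 with collision correction, and leaving out a library gave -0.024 to 0.197. For Gja1 in stimulated against uninjured cord it was 0.0298 with thinning, and -0.224 to 0.0709 without single libraries. The Slc1a3 to Gja1 ratio (stimulated against injured) spanned -0.0167 to 0.40 without single libraries, negative without stimulated replicate 3, and the Slc1a3 to Glul ratio (injured against uninjured) -0.0692 to 0.29, negative without injured replicate 4. Total counts moved the median of all genes by 0.12 in injured against uninjured and by -0.15 in stimulated against injured cord, and no filter moved the latter by -0.11. A mean count of 20 left 3113 genes to test and called 580 higher and 543 lower in injured against uninjured cord, where 889 and 803 were called of 5285. Slc1a2 and Kcnj10, at 20 and 12 counts in all, were tested with no filter alone and did not pass.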
